A study of Homo sapiens with 2 samples.

Results

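The Iroquois genes IRX1 to IRX6 encode homeodomain transcription factors. All 6 were listed among the 17397 genes in the expression tables of wild-type (WT) and MEIS2-/- cells. The members were taken by name as the whole human family, and the family was chosen by earlier results of the same FPKM comparison in which IRX6 stood out. The differences between WT and MEIS2-/- cells are therefore given as a description, with no test. The study asked how MEIS2 acts in early hematopoietic differentiation, and it compared 1 WT library with 1 MEIS2-/- library. Both came from H1, a widely used human embryonic stem cell line, collected at day 4. Cells of both genotypes were treated alike, for 2 days with BMP4 (40 ng/ml) plus activin A (50 ng/ml) and for another 2 days with bFGF (50 ng/ml) plus VEGF (40 ng/ml). The MEIS2-/- cells were grown from single-cell colonies after lentiviral delivery of Cas9 and a guide RNA to MEIS2 and selection with puromycin, and the labels do not say which homozygous clone was sequenced. Expression was deposited as FPKM, the fragments of a gene per kilobase of its transcripts and relative to the total of mapped fragments. Each genotype has 1 library and no measure of how cultures of it vary, so no p-value is given and no order of levels could be set against an error.

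Iroquois proteins belong to the TALE class of homeodomain proteins, whose homeodomain carries a loop of extra residues, and the same class holds the MEIS, PBX, PKNOX and TGIF proteins. They act mostly in patterning, in the neural plate, the heart, the limb and the kidney, and they are arranged in a pair of genomic clusters of 3 genes each that arose by duplication. In the developing heart IRX4 marks the ventricles, while IRX3 and IRX5 take part in conduction and repolarization. The genes of a cluster lie far apart in otherwise gene-poor DNA and are known to share long-range regulatory elements.

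On GRCh38 in the GENCODE 29 annotation, the chromosome 5 cluster holds IRX4 at 1877413 to 1887236 on the minus strand, IRX2 at 2745845 to 2751662 on the minus strand and IRX1 at 3596054 to 3601403 on the plus strand. The chromosome 16 cluster holds IRX3 at 54283304 to 54286763 on the minus strand, IRX5 at 54930862 to 54934485 on the plus strand and IRX6 at 55323760 to 55330760 on the plus strand. The labels name hg19 for the deposited values, whose tables give no coordinates. The tables list the genes by NCBI Gene numbers, 79192 for IRX1, 153572 for IRX2, 79191 for IRX3, 50805 for IRX4, 10265 for IRX5 and 79190 for IRX6.

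The 6 genes are close paralogs, so a stretch in which their messages are nearly identical is shown first. It holds 66 coding bases around the last helix of the homeodomain, the helix that contacts DNA, from the protein-coding transcripts of GENCODE 29, 5′ to 3′ in the direction of transcription. Capitals mark the bases that differ between members.
IRX1: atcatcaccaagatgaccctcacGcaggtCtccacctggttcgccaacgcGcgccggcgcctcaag
IRX2: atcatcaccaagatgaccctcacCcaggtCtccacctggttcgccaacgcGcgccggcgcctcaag
IRX3: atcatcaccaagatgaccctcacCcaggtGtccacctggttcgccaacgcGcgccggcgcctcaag
IRX4: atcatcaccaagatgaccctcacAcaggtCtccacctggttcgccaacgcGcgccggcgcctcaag
IRX5: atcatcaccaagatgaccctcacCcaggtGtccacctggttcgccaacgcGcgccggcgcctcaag
IRX6: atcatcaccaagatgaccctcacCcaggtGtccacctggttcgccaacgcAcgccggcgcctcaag

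Of the 66 bases, 63 were identical in all 6 genes. The other 3 were each the third base of a codon, and the 22 codons encoded 1 and the same peptide in every member. IRX3 and IRX5 had 0 differences in this stretch, and IRX6 differed from each of them by 1 base. Over their whole length the messages shared few windows with other members, and the shared windows were not limited to this stretch. Of all 36-base windows in the annotated coding transcripts, 1.07% in IRX6, 1.60% in IRX2, 2.32% in IRX4, 2.36% in IRX1, 3.89% in IRX5 and 4.04% in IRX3 also occurred in another member. Fragments from these windows could have been split between members by the authors' quantification, and how they were assigned is not given in the sources used here. IRX1 has a further overlap. An annotated antisense transcript, AC016595.1, covers 319 of the 1823 windows of IRX1 (17.5%), and the labelled kit does not keep the strand, so reads of the pair cannot be told apart there.

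IRX6 and IRX1 were far higher in MEIS2-/- cells than in WT cells, IRX2 was moderately higher, IRX3 and IRX5 were lower, and IRX4 was near the filter in both. Fold changes were taken on the log2(FPKM + 0.1) scale, which understates the change of low genes, over the 13075 genes that reached 1 FPKM in either library or both. All 6 members passed this filter, 4 of them in both libraries, and IRX4 and IRX5 in WT cells only, which leaves these 2 more room to be lower than to be higher. At least 2-fold higher were 3 of the 6 members, beside 7.84% of all genes compared, and at least 2-fold lower were 2 of the 6, beside 7.97%. At a threshold of 4-fold, 2 members were higher (all genes, 1.48%) and 2 were lower (all genes, 1.84%). The family was chosen with this contrast known, so the counts describe its members and say nothing about how unusual they are.

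**Figure D1:**
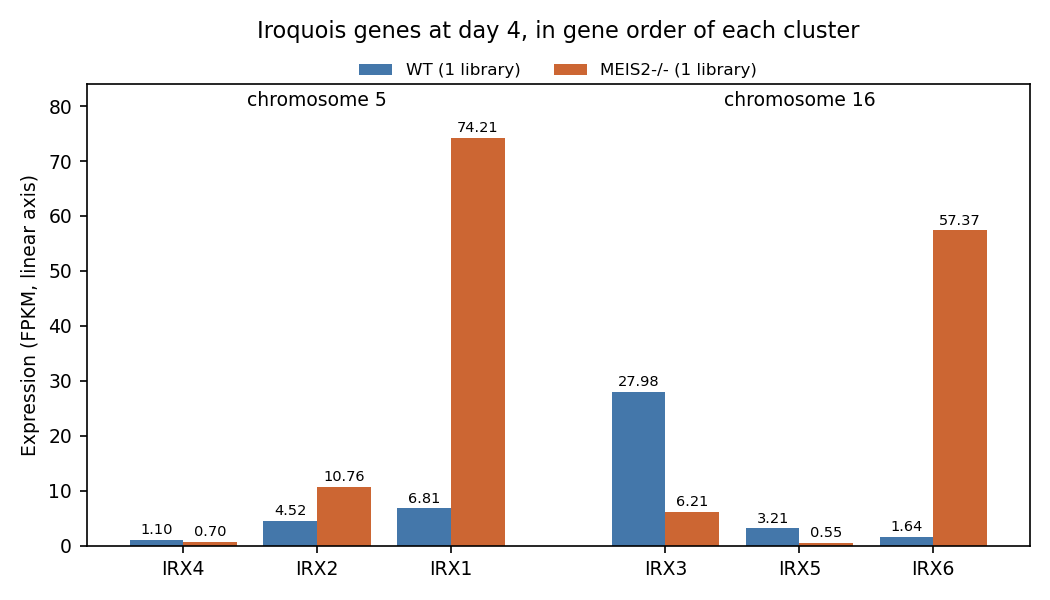
Bars give the FPKM of each Iroquois gene (linear axis from 0) in the single WT library and the single MEIS2-/- library, in gene order along each cluster, with no error bars because there is 1 library per genotype. IRX1 (6.81 and 74.21 FPKM) and IRX6 (1.64 and 57.37 FPKM) are the tall MEIS2-/- bars, and IRX3 (27.98 and 6.21 FPKM) is the only tall WT bar.

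WT cells had 1.64 FPKM of IRX6 and MEIS2-/- cells had 57.37 FPKM. The gene was therefore near the filter in one library and above 92.2% of all listed genes in the other. Its log2 fold change was 5.05, the highest among the 13075 genes compared. Only 9 genes (0.0688%) were at least 16-fold higher. The first place depended on the pseudocount, since with 0.01 FPKM in place of 0.1 FPKM IRX6 ranked 9, behind genes listed at or near 0 in WT cells. IRX6 is a member of the family described in the developing retina.

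IRX1, which is known from development of the lung, the limb and the ventricular septum, had a level of 6.81 FPKM in WT cells, against 74.21 FPKM after MEIS2 deletion. Its log2 fold change was 3.43, rank 26 from the highest. This rank moved to 5 with a pseudocount of 1 FPKM, to 46 with 0.01 FPKM and to 11 with a filter of 5 FPKM. In absolute terms it gained more than IRX6, 67.4 FPKM against 55.7 FPKM. IRX2, its partner in the chromosome 5 cluster, was at 4.52 FPKM and 10.76 FPKM, a log2 fold change of 1.23. For IRX4 the WT level was 1.10 FPKM and the MEIS2-/- level 0.70 FPKM, and its log2 fold change of -0.58 was short of 2-fold. Values this low can rest on few fragments, and the depth is unknown.

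IRX3, a factor of neural tube and nephron patterning, was the most abundant member in WT cells, with 27.98 FPKM, and MEIS2-/- cells had 6.21 FPKM of it. Its log2 fold change was -2.15, and the gene kept 22.2% of its WT level. IRX5 was at 3.21 FPKM and 0.55 FPKM, a log2 fold change of -2.35, or 17.1% of its WT level. With a pseudocount of 1 FPKM the log2 fold changes were -2.01 for IRX3 and -1.44 for IRX5, so how close the pair lies depends on the pseudocount. In FPKM the differences (MEIS2-/- minus WT) were -21.77 and -2.66. The proteins of this pair are known to overlap in function in heart and limb, and the ratio of IRX3 to IRX5 was 8.72 in WT cells and 11.3 in MEIS2-/- cells. They are the pair that shares most sequence, with 99 windows of 36 bases in common.

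**Figure D2:**
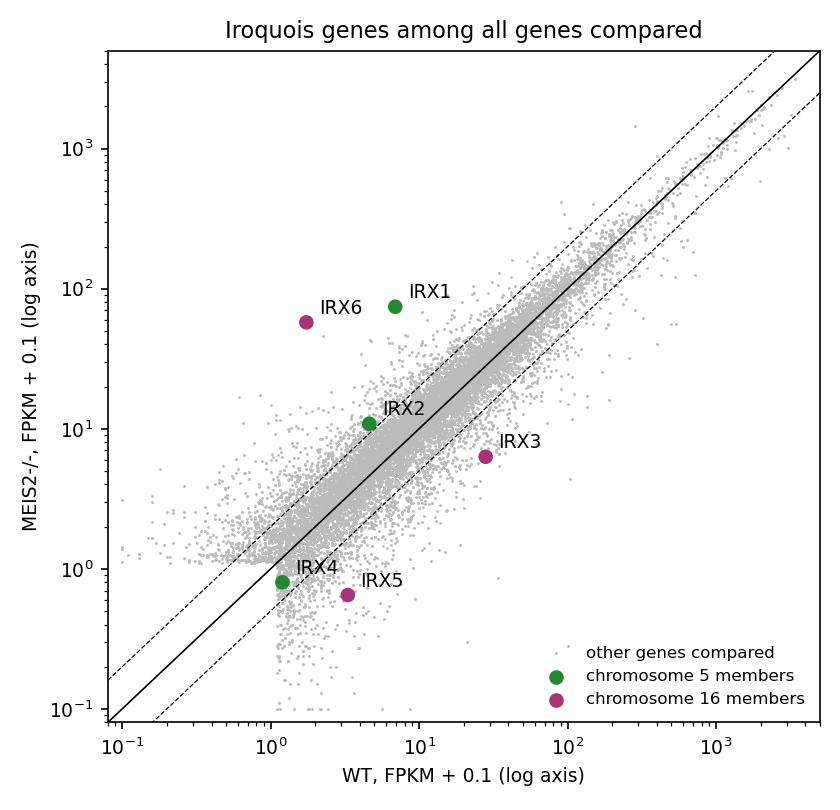
Each point is 1 of the 13075 genes compared, with WT on the horizontal and MEIS2-/- on the vertical axis, both as FPKM + 0.1 on log axes. The solid line marks equal values and the dashed lines 2-fold. IRX6 and IRX1 lie far above the upper dashed line, IRX2 just above it, IRX3 and IRX5 below the lower one, and IRX4 between them.

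FPKM is scaled per length, so the levels of the members can be set side by side within a library. From the highest level, the order was IRX3, IRX1, IRX2, IRX5, IRX6 and IRX4 in WT cells, and IRX1, IRX6, IRX2, IRX3, IRX4 and IRX5 in MEIS2-/- cells. Whether neighbours in either order differ beyond their spread cannot be said with 1 library each. The closest neighbours in MEIS2-/- cells were IRX4 at 0.70 FPKM and IRX5 at 0.55 FPKM. IRX3 made up 61.8% of the summed Iroquois FPKM in WT cells and 4.15% in MEIS2-/- cells. IRX1 and IRX6 together held the largest part in MEIS2-/- cells, with 49.5% and 38.3%, after 15.0% and 3.62% in WT cells. Summed over all 6 members, WT cells had 45.3 FPKM and MEIS2-/- cells 149.8 FPKM.

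The chromosome 16 cluster did not move as a unit, while on chromosome 5 only IRX4, which was near the filter, stood apart. In the chromosome 5 cluster, 2 genes were at least 2-fold higher and the remaining gene, IRX4, was not past 2-fold. Its summed level was 12.4 FPKM in the WT library, against 85.7 FPKM in the other, a ratio of 6.89, and the share of IRX1 in that sum was 54.8% and 86.6%. In the chromosome 16 cluster 1 gene was higher and 2 were lower, and the log2 fold changes spanned 7.39. The summed level of this cluster was 32.8 FPKM (WT) and 64.1 FPKM (MEIS2-/-), a ratio of 1.95, while its composition turned over. IRX3 held 85.2% of it in WT cells and 9.68% in MEIS2-/- cells, and IRX6 held 4.995% and 89.5%. The ratio of IRX6 to IRX3 was 0.0586 in WT cells and 9.24 in MEIS2-/- cells. IRX6 lies 389 kb beyond IRX5, and IRX5 lies 644 kb from IRX3.

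The genes around each cluster were compared in the same way, to see whether the differences extended over the whole region. Gene order was taken from RefSeq (GRCh38.p14), with the 5 nearest listed genes on each side and the listed genes between members. Of 22 such neighbours, 17 passed the filter. Among these 17, 1 was at least 2-fold higher (all genes, 7.84%) and 0 at least 2-fold lower (all genes, 7.97%). Their median log2 fold change was 0.30, beside 0.12 for all genes compared. The 1 higher neighbour was ADAMTS16, a secreted metalloprotease gene next to IRX1, with 0.09 FPKM (WT) and 1.37 FPKM (MEIS2-/-). It passed the filter in MEIS2-/- cells only, and its log2 fold change of 2.95 rests on these low values.

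The other genes next to members changed by less than 2-fold. FTO, the RNA demethylase gene whose introns are known to hold enhancers of IRX3, had nearly the same level in WT (10.01 FPKM) and MEIS2-/- cells (10.27 FPKM). CRNDE, a long noncoding RNA gene that starts 1672 bases from IRX5 on the opposite strand, was at 3.00 FPKM and 2.54 FPKM. Its log2 fold change of -0.23 stands beside -2.35 for IRX5. MMP2, the gelatinase gene next to IRX6, was at 201.8 FPKM and 241.1 FPKM, a log2 fold change of 0.26. On chromosome 5, IRX2-DT, the divergent transcript that begins beside the start of IRX2, was at 2.52 FPKM and 4.12 FPKM, a log2 fold change of 0.69. It was higher in MEIS2-/- cells, as IRX2 was, but by less than 2-fold. The median over neighbours was a log2 fold change of 0.68 on chromosome 5 and of -0.09 on chromosome 16.

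**Figure D3:**
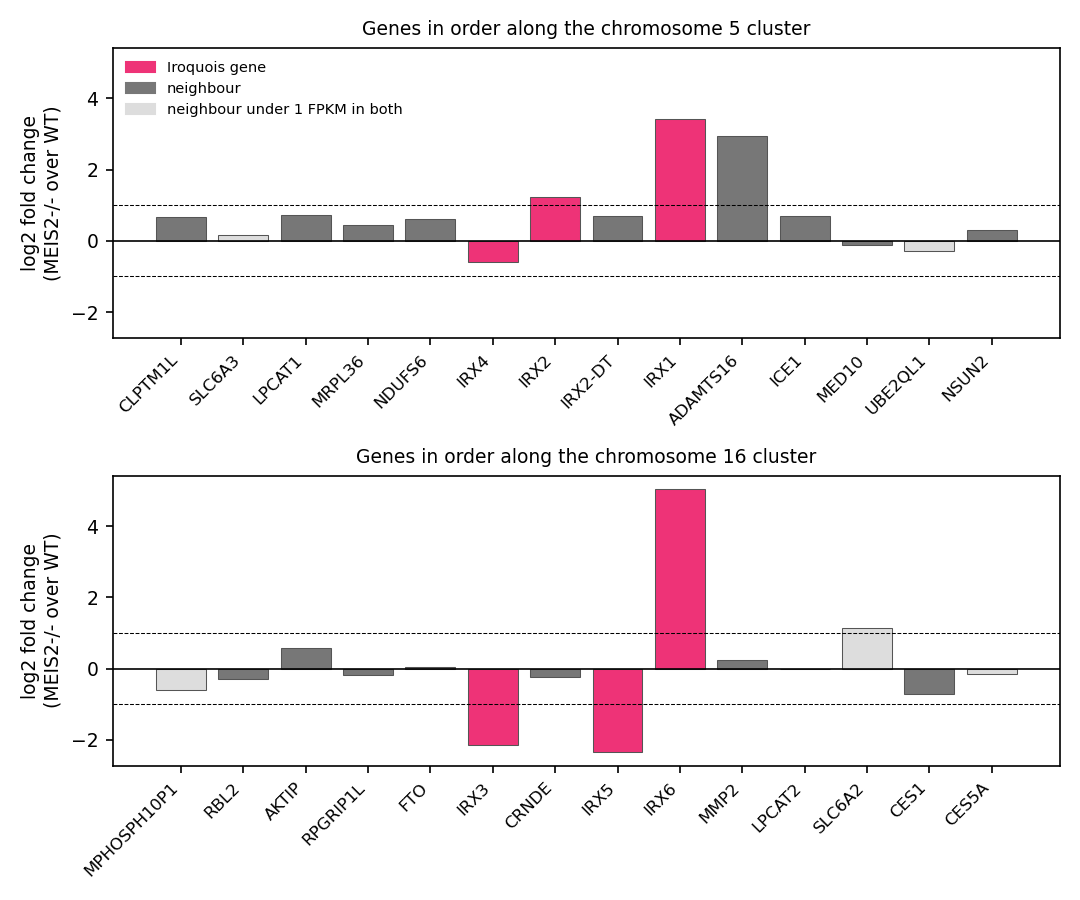
Bars give the log2 fold change (MEIS2-/- over WT, FPKM + 0.1) of the Iroquois genes and their neighbours in order along chromosome 5 (top) and chromosome 16 (bottom), with dashed lines at 2-fold. The bars of IRX6 (5.05), IRX3 (-2.15) and IRX5 (-2.35) stand between neighbours that stay within the dashed lines, apart from SLC6A2, which is under 1 FPKM in both libraries, and ADAMTS16 (2.95) is the tall neighbour of IRX1.

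The promoter windows of the chromosome 5 members are shown because the table held windows for these members and IRX2 and IRX1 were both at least 2-fold higher in the MEIS2-/- library. They run from 250 bases before to 50 bases after the annotated start, from RefSeq on GRCh38.p14, where 3 of the 6 members were matched with 5 windows. IRX4 is given by the first of its 3 windows, chr5:1886896-1887195 (minus strand), IRX2 by chr5:2751628-2751927 (minus strand) and IRX1 by chr5:3595582-3595881 (plus strand). Capitals mark matches, on either strand, to the motifs described after the sequences.
IRX4: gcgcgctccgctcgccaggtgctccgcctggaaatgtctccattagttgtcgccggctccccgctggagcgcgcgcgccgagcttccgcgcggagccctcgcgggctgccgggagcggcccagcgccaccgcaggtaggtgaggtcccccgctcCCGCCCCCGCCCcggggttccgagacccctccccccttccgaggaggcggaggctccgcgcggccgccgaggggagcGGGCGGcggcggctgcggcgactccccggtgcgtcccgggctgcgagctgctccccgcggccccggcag
IRX2: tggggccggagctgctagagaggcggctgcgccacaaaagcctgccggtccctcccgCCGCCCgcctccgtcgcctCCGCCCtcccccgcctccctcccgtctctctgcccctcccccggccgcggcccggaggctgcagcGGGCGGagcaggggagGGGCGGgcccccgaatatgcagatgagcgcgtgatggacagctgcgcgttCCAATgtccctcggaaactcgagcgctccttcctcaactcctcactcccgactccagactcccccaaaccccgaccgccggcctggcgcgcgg
IRX1: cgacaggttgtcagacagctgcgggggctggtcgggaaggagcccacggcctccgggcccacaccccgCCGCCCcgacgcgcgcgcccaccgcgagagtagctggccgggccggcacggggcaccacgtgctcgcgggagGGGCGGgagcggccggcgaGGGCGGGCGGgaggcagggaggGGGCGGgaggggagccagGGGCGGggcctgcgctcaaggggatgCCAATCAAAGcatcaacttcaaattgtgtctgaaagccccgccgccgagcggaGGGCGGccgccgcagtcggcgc

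These windows are rich in G and C, with 79.7% in the IRX4 window shown, 73.3% in IRX2 and 76.0% in IRX1. The other IRX4 windows had 63% and 75%, and the median over all 35116 windows was 58.7%. The shares of all windows given below do not allow for this composition. The core site of MEIS and PKNOX proteins, TGACAG, was found in none of the 5 windows, and 15.8% of all windows held it. The PBX and HOX site TGATTGAT (0.484% of all windows) and the palindrome ACANNTGT bound by Iroquois proteins (5.62%) were not found either. Absence from these windows says only that these letters are not there. The capitals mark the GC box GGGCGG, present in 44.95% of all windows, with 7 matches in IRX1, 4 in IRX2 and 3 in the IRX4 window shown. They also mark the CCAAT box, present in 34.6%, with 1 match each in IRX1 and IRX2. In IRX1 the CCAAT match overlaps a match to CTTTGAT, the site of TCF and LEF factors, read on the opposite strand and present in 2.62% of all windows. The motifs marked in capitals were chosen after these sequences had been seen. The windows of IRX2 and IRX2-DT overlap by 285 bases, so the same letters serve both starts.

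The targeted gene, MEIS2, had 10.85 FPKM in the WT library and 31.7% of that, 3.44 FPKM, in the MEIS2-/- library. Of the 13 other TALE genes listed, MEIS2 included, 11 passed the filter. Among them 3 were at least 2-fold lower (all genes, 7.97%) and 0 at least 2-fold higher (all genes, 7.84%). The median was -0.26 on the log2 scale. The 3 lower genes were MEIS2 with -1.63, MEIS3 with -1.38 and PKNOX2 with -1.20. PBX4, of a family of proteins that bind DNA together with MEIS and HOX proteins, had a log2 fold change of -0.49. MEIS1 had a log2 fold change of -0.53, PKNOX1 one of -0.26, TGIF1 one of -0.01 and TGIF2 one of 0.39. PBX2 (0.01) and PBX3 (-0.03) were almost equal in the libraries, and MKX and TGIF2LY were listed at 0.03 FPKM or less.

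Homeobox genes outside the TALE class were taken by a written pattern of gene symbols, which need not cover the whole class. The pattern matched 168 genes in the tables, and 73 of them passed the filter. Of these, 15 were at least 2-fold higher (all genes, 7.84%) and 19 at least 2-fold lower (all genes, 7.97%). Their median was -0.12 on the log2 scale. A gene that passed the filter in 1 library only could be counted in 1 direction only. Of the genes named below, CDX1 (0.99 FPKM) and DLX5 (0.97 FPKM) were under 1 FPKM in WT cells. PITX3 (0.17 FPKM) and ISL2 (0.08 FPKM) were under it in MEIS2-/- cells. The 90 homeobox genes compared in all were those of this list, the other TALE genes and the Iroquois genes that passed the filter. Among them, IRX6 ranked 1 and IRX1 ranked 3 from the highest log2 fold change. CDX1 (3.52), a factor of posterior patterning, lay between them. IRX5 ranked 4 and IRX3 ranked 5 from the lowest, after PITX3 (-3.83), ISL2 (-2.62) and EMX1 (-2.61). With a pseudocount of 1 FPKM IRX3 ranked 3 and IRX5 ranked 10 from the lowest, and without a filter they ranked 8 and 6, while IRX6 ranked 1 and IRX1 ranked 2 or 3 from the highest under every setting tried. DLX5 (3.09) and NKX1-2 (2.54) followed IRX1 at the upper end. By level, IRX6 was number 70 among these genes in WT cells and number 10 in MEIS2-/- cells, IRX1 was number 39 and number 6, and IRX3 was number 14 and number 41.

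**Figure D4:**
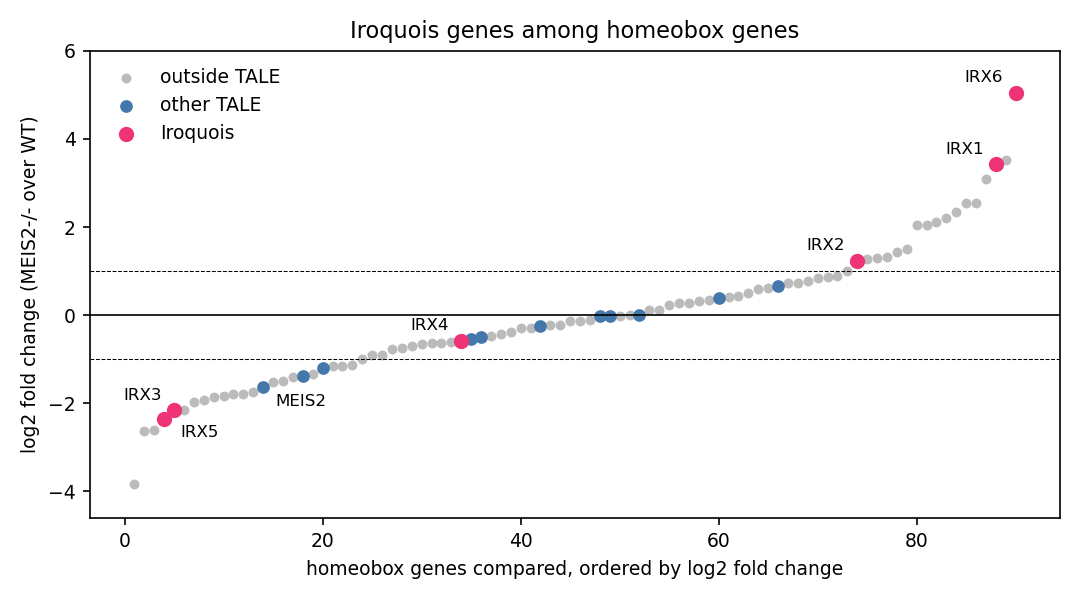
The 90 homeobox genes compared are ordered by log2 fold change (MEIS2-/- over WT, FPKM + 0.1), with the Iroquois genes, the other TALE genes and homeobox genes outside the TALE class in different colours and dashed lines at 2-fold. Iroquois genes stand at both ends, with IRX6 (5.05) and IRX1 (3.43) at the right and IRX3 (-2.15) and IRX5 (-2.35) at the left.

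The genes whose pair of levels was most like that of each member were found by the distance between log2(FPKM + 0.1) values over the 2 libraries. With 2 points per gene the likeness is a coincidence of levels and direction only. IRX6 had few genes near it. The nearest were FGB (2.16 and 45.66 FPKM, distance 0.50), TRIML2 (1.43), GSTA2 (1.48), HPGD (1.52) and IGFBP3 (1.65). FGB encodes a fibrinogen chain. IRX1 was nearest to TFAP2C, whose levels were 10.41 FPKM (WT) and 68.29 FPKM (MEIS2-/-), followed by NKX1-2 and CFAP95. The lower members lay in denser parts of the distribution. IRX3 was nearest to MMP23B, EXOC3L1 and SPEG, and IRX5 to FSHR, TWIST2 and SLITRK6. TWIST2, a factor of mesenchyme, was at 2.99 FPKM and 0.53 FPKM. IRX2 was nearest to NPIPA2, PLEKHH1 and VMA12, and IRX4 to ANKS1B, CCDC191 and RARB.

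Genes tied to Iroquois factors in other tissues did not differ in a common direction. Of 13 such genes, 10 passed the filter, and their median log2 fold change was 0.00. Of the 10, 1 was at least 2-fold higher (all genes, 7.84%) and 1 at least 2-fold lower (all genes, 7.97%). ARID5B, the repressor gene of the FTO locus pathway in fat cells, was higher, with 2.23 FPKM (WT) and 5.80 FPKM (MEIS2-/-). MYH6, an atrial myosin gene, was lower, at 1.13 FPKM and 0.50 FPKM. GATA3, whose protein is known to bind IRX5, was at 55.06 FPKM and 55.40 FPKM. GJA1, which encodes connexin 43 and is known to be repressed by IRX3 in the heart, was at 306.1 FPKM and 302.7 FPKM. GJA5, which encodes connexin 40, was at 3.93 FPKM and 2.32 FPKM, and CXCL12, a chemokine gene, at 1.60 FPKM and 2.99 FPKM. TRPS1, RXRA and RPGRIP1L also differed by less than 2-fold, and KCND2, VDR and MYH7 were under 1 FPKM in both libraries.

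Marker lists of other cell types also differed between the libraries, and in bulk RNA a change in the share of cells of a type cannot be told apart from a change of RNA per cell. Beside the counts below, 7.84% of all genes compared were at least 2-fold higher and 7.97% at least 2-fold lower. In every list, a gene that passed the filter in 1 library only could be counted in 1 direction only, as with KRT7 (0.51 and 16.68 FPKM). Of surface ectoderm and amnion genes, 11 of 17 that passed the filter were at least 2-fold higher and 3 were lower. Sums are over all listed genes of a list, here 20, with 6865 FPKM (WT) and 3462 FPKM (MEIS2-/-). Most of this sum came from the 3 lower genes, KRT8 (2871 and 1228 FPKM), KRT19 (2274 and 987 FPKM) and KRT18 (1200 and 538 FPKM). The largest difference in each direction was that of KRT7 (4.78) and of KRT8 (-1.23), and TFAP2B was listed at 0 in WT cells. Of endoderm genes, 5 of 11 were higher and 1 was lower, with sums of 759.6 and 1367 FPKM and the ends of the range at TTR (3.49) and HHEX (-2.14). Of pluripotency genes, 4 of 7 were higher and 0 were lower, with sums of 616.1 and 1886 FPKM, from POU5F1 (2.35) to DNMT3B (-0.76). No gene of these last 2 lists was listed at 0.

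Of endothelial and blood genes, 11 of 15 were lower and 0 were higher, with sums of 887.6 and 464.4 FPKM, from SOX17 (0.90) to ETV2 (-2.64). None was listed at 0 in either library, and RUNX1 was under 1 FPKM in both. Which cells the RNA of these genes came from was not tested. Of cardiac genes, 7 of 13 were lower and 0 were higher, with sums of 719.7 and 465.2 FPKM, from ISL1 (0.62) to HAND2 (-2.44), and MYH7 was at 0 in WT cells. Neural and neural plate border genes went both ways, with 5 of 13 higher and 4 lower, and sums of 457.0 and 348.3 FPKM. PAX7, SOX3, ZIC1, NEUROG1 and TFAP2B were at 0 in WT cells and SIX3, SIX6 and GBX2 in MEIS2-/- cells. Of kidney and intermediate mesoderm genes, 4 of 14 passed the filter, with 1 higher (PAX2, by 2-fold) and 1 lower (LHX1, -1.78), sums of 81.5 and 70.3 FPKM, and OSR2 and POU3F3 at 0 in WT cells. The part of these cell types in the Iroquois levels was not tested.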

How the data were processed

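RNA-seq was performed by BGI on 1 WT and 1 MEIS2-/- library of H1-derived cells at day 4. Per the labels, RNA was extracted with Trizol, libraries were made with an Illumina TruSeq RNA kit, and hg19, BWA, Bowtie and RSEM are named in the submitters' processing notes with no roles. The authors deposited FPKM values rounded to 2 decimals for 17397 genes, with no counts. The deposited values summed to 447542 FPKM in the WT and 440651 FPKM in the MEIS2-/- library. Values of 0.1 to 0.5 FPKM in single-transcript genes showed no whole-read steps (best agreement with multiples of 1 read 0.109 and 0.0876, where 1 is complete), so the depth is unknown and no counting interval is given. The rounding, and the use of full annotated transcript lengths, could have hidden such steps.

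NCBI Gene numbers were matched to RefSeq symbols for 17365 genes. Log2 ratios were computed after adding 0.1 FPKM, with a filter of 1 FPKM in at least 1 library and a threshold of 2-fold. The members and gene lists were chosen with earlier results of these data known. Genes were named by a written rule: the members, MEIS2, the other TALE genes, genes tied to Iroquois factors, neighbours (all drawn in the plot by gene order), the largest rise and fall of each marker list, the 3 highest and 3 lowest homeobox genes outside the TALE class, and the 5 (IRX6) or 3 (other members) most similar genes. Some genes that the rule names are not reported here. Alternatives were pseudocounts of 1 and 0.01, other filters and thresholds, and rescaling by the median ratio or a trimmed mean of log ratios (TMM, unweighted, computed on FPKM). The fold changes and rescalings were tested on simulated data with WT levels raised by 1 FPKM, so levels near 0 were not covered. Python 3.11.15, numpy 2.4.6, pandas 2.3.3 and matplotlib 3.10.9 were used.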

Additional observations from a re-analysis of the deposited data

How the results depend on the processing

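With 1 library per genotype and an unknown depth, no value has an error and a difference between cultures cannot be told apart from the genotype. No paired analysis was possible because each genotype has 1 library. Under the other pseudocounts and both rescalings, each Iroquois gene kept its direction and its side of 2-fold. The log2 fold change ran from 4.47 to 5.12 for IRX6, 3.27 to 3.44 for IRX1, 1.09 to 1.25 for IRX2, -0.69 to -0.30 for IRX4, -2.27 to -2.01 for IRX3 and -2.52 to -1.44 for IRX5. Setting the median log2 ratio to 0 lowered all values by up to 0.12. IRX6 ranked 1 under each setting except a pseudocount of 0.01, where it ranked 9, and IRX1 ranked between 5 and 46. Among homeobox genes, IRX3 ranked between 2 and 8 and IRX5 between 4 and 10 from the lowest, and a filter of 5 FPKM left IRX5 out. These rank comparisons were chosen after the data were seen.

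With a filter of 5 FPKM, 1 Iroquois gene was lower, since IRX5 was left out, as was IRX4, and 9 homeobox genes outside the TALE class were higher, 10 lower, and 0 neighbours higher. Without a filter these became 29, 34 and 2. A pseudocount of 1 left 12 lower homeobox genes outside the TALE class. At 1.5-fold, 23 of them were higher, 1 other TALE gene was higher, and 6 neighbours, all on chromosome 5, were higher and 1 lower. IRX4, just at 1.5-fold, was then counted too, so 3 Iroquois genes were lower. At 4-fold, 9 homeobox genes outside the TALE class were higher and 4 lower, and 0 other TALE genes were lower. Over all genes, the counts higher and lower were 554 and 598 with the filter of 5 FPKM, and 1567 and 1516 without a filter. They were 623 and 693 with a pseudocount of 1, 2353 and 1890 at 1.5-fold, and 194 and 241 at 4-fold. Filters and thresholds change by construction how many genes are counted, and a larger pseudocount shrinks the fold changes of low genes.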
